A study of Mus musculus with 12 samples.

Results

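The RNA of 39 genes of fatty acid oxidation, ketogenesis and the PPAR alpha response was followed in mouse liver. The genes were taken from a list by gene symbol and joined by Ensembl identifier to a table of 51912 genes. The list was chosen with earlier results of these data known. By role, 19 are mitochondrial, 10 are peroxisomal, and 10 are regulated targets of PPAR alpha that act in fatty acid activation, binding, storage or signalling. The libraries came from adult male mice in 4 groups of 3 mice: wild-type (WT) mice on corn oil, and WT, hCAR/hPXR or Car KO/hPXR mice on CITCO, a ligand that activates human CAR. The hCAR/hPXR mice carry human CAR and human PXR in place of the mouse receptors, and in the Car KO/hPXR mice Car is deleted and PXR is human; both lines were made on a C57BL/6NTac background. Work cited by the study, mainly in cultured cells, proposes that CITCO can also activate human PXR. Injections were intraperitoneal, once a day for 4 days, with death on day 5. The sample labels give 10 mg/kg of CITCO, and the study's methods name a higher dose as well for this treatment. Of the corn oil mice, only WT libraries were analysed here, so in the 2 humanised lines the response to CITCO and the genotype cannot be told apart.

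The liver burns fatty acids in 2 compartments. Long-chain acyl-CoA enters mitochondria through the carnitine shuttle and is shortened there by beta-oxidation, and the acetyl-CoA that results can be made into ketone bodies. Peroxisomes shorten very long and branched chains, and the Cyp4a enzymes of the endoplasmic reticulum start omega-oxidation. PPAR alpha, a nuclear receptor that binds fatty acids and pairs with RXR, switches on genes of all these steps during fasting, and CAR and PXR are nuclear receptors that sense foreign compounds and use the same partner, RXR.

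The DNA site of a PPAR alpha and RXR pair is a direct repeat of AGGTCA with a spacer of 1 base, and the promoters that held such a repeat are shown because the members are grouped by this receptor. Each promoter window of RefSeq (GRCm38.p6), 250 bases before to 50 bases after a gene start, was searched on both strands for this repeat of 13 bases with up to 2 mismatches outside the spacer, which could be any base. Of the 39 members, 30 had a promoter in the RefSeq table, and 4 of their 33 windows (12.1%) held a match, as did 1268 of all 32851 windows (3.86%). Cyp4a10, Cyp4a14, Angptl4, Vnn1, Acaa2, Acat1, Crat, Decr1 and Hsd17b4 had no promoter there and were not searched. The 4 lie before Fabp1 (fatty acid binding), Acot4 (a peroxisomal thioesterase), Plin2 (a lipid droplet coat) and Etfa (electron transfer), and only the Fabp1 match had no more than 1 mismatch, as had 0.554% of all windows. The capitals mark the match, which in all 4 reads as the repeat on the opposite strand; Fabp1 and Acot4 are on the plus strand, at chr6:71199629-71199826 and chr12:84038129-84038378, and Plin2 and Etfa on the minus strand, at chr4:86670264-86670292 and chr9:55512300-55512328. The matches begin 67 (Fabp1), 13 (Acot4), 225 (Plin2) and 77 (Etfa) bases before the RefSeq start. The Fabp1 stretch is printed for 198 bases only, up to the GENCODE gene start at 71199827, which lies before the RefSeq start. A match of letters is a description and was not tested for binding.
Fabp1: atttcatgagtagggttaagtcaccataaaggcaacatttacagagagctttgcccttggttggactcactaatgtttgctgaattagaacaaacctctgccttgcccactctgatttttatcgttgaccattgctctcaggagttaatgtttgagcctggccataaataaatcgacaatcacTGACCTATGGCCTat
Acot4: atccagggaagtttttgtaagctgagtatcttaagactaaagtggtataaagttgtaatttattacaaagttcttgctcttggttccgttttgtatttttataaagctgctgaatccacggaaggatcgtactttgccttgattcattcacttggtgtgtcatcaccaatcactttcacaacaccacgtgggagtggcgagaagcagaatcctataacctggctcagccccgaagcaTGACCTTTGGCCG
Plin2: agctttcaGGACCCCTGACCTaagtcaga
Etfa: gcacacccTTACCTTTGCCCTactcccaa

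Libraries of messenger RNA 3' ends held between 1167027 and 2341572 counts, and a count of 3 corresponded to 1.34 to 2.50 CPM (counts scaled to edgeR's TMM-adjusted library size). The genotype checks matched the labels. Mouse Nr1i2, the gene of PXR, had at most 2 counts in each library of both humanised lines and 100 to 199 in each WT library, and Cyp2b10, the classical CAR target, was counted at 146, 167 and 153 CPM in hCAR/hPXR CITCO libraries and at no more than 4.15 CPM elsewhere. Summed CPM of the 9 hepatocyte markers found was 26915, 26678 and 42388 in hCAR/hPXR CITCO libraries and 31690.4 to 40058 in the others. Of the hCAR/hPXR libraries, replicates 1 and 2 were the lowest of the 12 and replicate 3 the highest. Alb (7649 to 20005.5 CPM over the 12 libraries) and Ttr (5290 to 11597 CPM) had the most counts of these markers. Fgb is also among the acute phase genes summed below. Genes of muscle (Acta1, Ckm and Mb; Myh6 was at 0) summed to 147 CPM in WT CITCO replicate 1 and 111 CPM in hCAR/hPXR CITCO replicate 1 and to no more than 17.2 CPM in any other library. WT CITCO replicate 3 stood apart for the members: 32 of the 36 that could be tested lay above their mean over 12 libraries there, against 7 in hCAR/hPXR CITCO replicate 3 and 11 to 26 in the other 10.

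Of the 39 members, 36 had enough counts to be tested, among 8594 genes in all, with 18 mitochondrial, 10 peroxisomal and 8 regulated targets. Calls required an adjusted p under 0.05 (edgeR's quasi-likelihood test, Benjamini-Hochberg) together with a fold change over 1.5, and no member met both in any comparison. Among all genes tested, 0.233% were called between WT CITCO and WT corn oil, 0.407% between hCAR/hPXR CITCO and WT CITCO, 0.256% between Car KO/hPXR CITCO and WT CITCO, and 0.582% when hCAR/hPXR CITCO was set against Car KO/hPXR CITCO. The test of any difference among the 4 groups called 1.42% of genes and no member, and Acsl5 and Cyp4a10 had the lowest adjusted p of the members in it, 0.0531 for both (edgeR). At an unadjusted p under 0.05, 3, 12, 6 and 6 of the 36 members passed in these 4 comparisons, in the order above, against 9.13%, 8.81%, 9.30% and 10.6% of all genes. DESeq2 called 0, 2, 1 and 1 members in the same order, where it called 0.501%, 0.729%, 1.63% and 2.41% of the genes to which it gave an adjusted p. These were Acsl1 and Fabp1, lower in hCAR/hPXR than in WT mice given CITCO, and Acsl5, higher in Car KO/hPXR mice than in either of the other 2 groups given CITCO. Its largest fold change among the 4 groups, taken with its test of any difference, called 4 members (these 3 and Cyp4a10) against 4.21% of genes. The WT CITCO libraries enter 3 of the comparisons and each humanised group enters 2, so the comparisons are not independent of each other. In bulk liver, fewer cells of a type and less RNA per cell cannot be told apart.

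**Figure D1:**
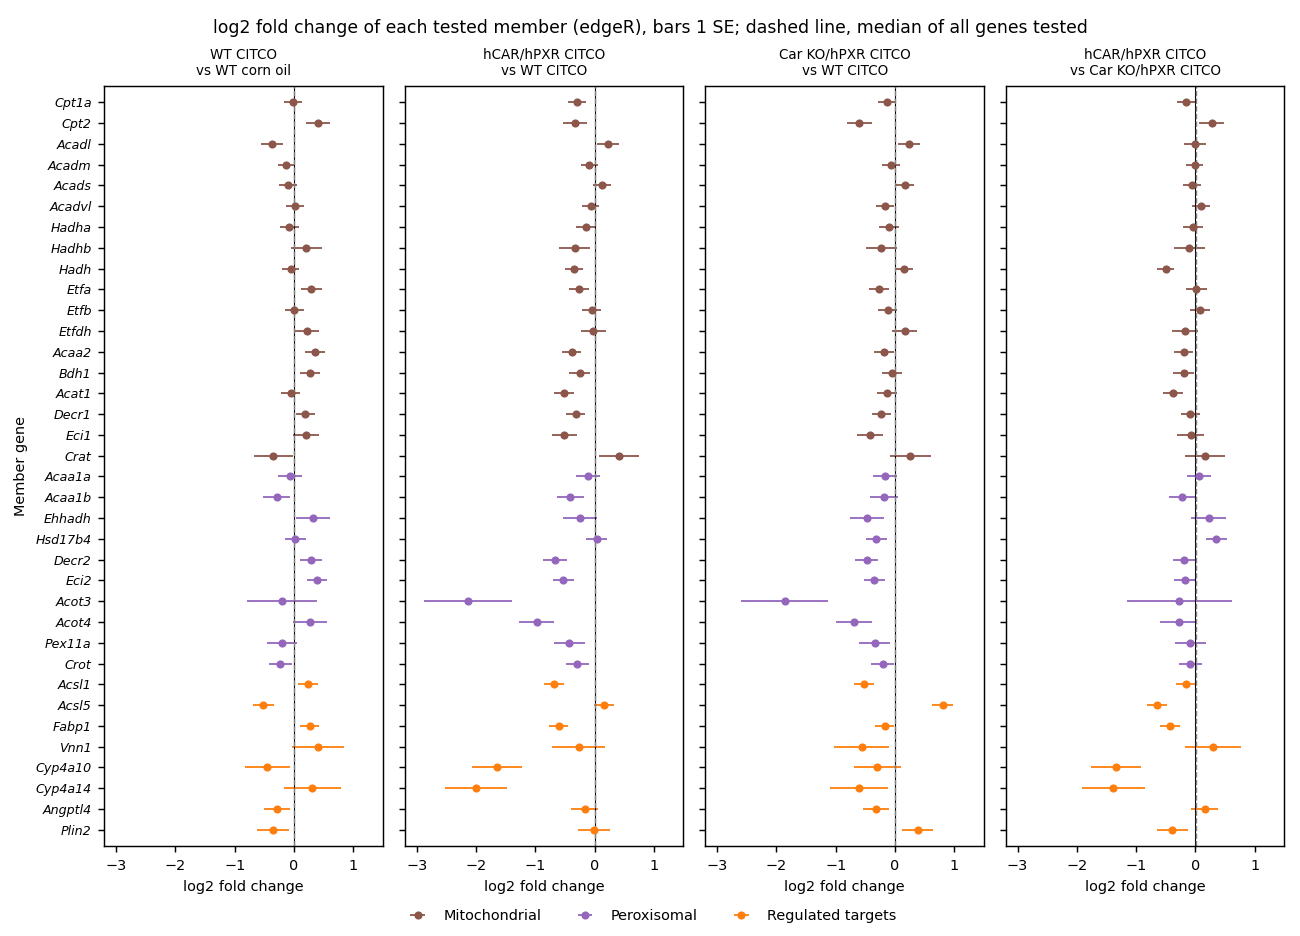
log2 fold change (x axis) of each of the 36 members tested (y axis) in 4 comparisons, from the edgeR fit of all 12 libraries; points are estimates, bars 1 SE, colours the role, and the dashed line the median of all genes tested. Between hCAR/hPXR CITCO and WT CITCO 31 of the 36 points lie below 0, and the lowest are Acot3, Cyp4a14 and Cyp4a10.

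CITCO against corn oil in WT mice addressed the response to the ligand with mouse receptors in place. The members lay on both sides of 0: 19 had a log2 fold change above 0 and 17 below, and the median was 0.01 for mitochondrial, -0.02 for peroxisomal and -0.03 for regulated targets, against -0.00028 for all genes tested. The range was from -0.52 (Acsl5) to 0.41 (Cpt2). The 2 groups did not overlap for 4 members that were higher with CITCO (Bdh1, Decr1, Eci2 and Fabp1), where 6.88% of all genes tested did not, and for 1 that was lower (Angptl4), where 7.85% did not. The median of the regulated targets went to -0.48 without WT CITCO replicate 3 and that of the mitochondrial members to 0.12 without WT CITCO replicate 2.

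hCAR/hPXR against WT mice, both given CITCO, was the comparison the study made by RNAseq, and it held the lowest values of the members. The study's own list of changed genes there, from DESeq2, holds the member Acsl1 as lower in hCAR/hPXR mice. Of the 36 tested, 31 had a log2 fold change below 0, where 48.4% of all genes tested did, and 12 of them also had an unadjusted p under 0.05, where 4.07% of all genes did in this direction. The median log2 fold change was -0.26 for mitochondrial, -0.42 for peroxisomal and -0.44 for regulated target members, against 0.01 for all genes tested. The hCAR/hPXR libraries lay below every WT CITCO library for 11 members, 6 mitochondrial (Cpt1a, Hadh, Etfa, Acat1, Decr1 and Eci1), 2 peroxisomal (Decr2 and Eci2) and 3 regulated targets (Acsl1, Fabp1 and Cyp4a10), and above for none, where 6.53% and 7.12% of all genes tested did so. Without WT CITCO replicate 3 the 3 medians were -0.17, -0.29 and -0.31, and the regulated targets had -0.64 without hCAR/hPXR CITCO replicate 1 and -0.67 without both libraries that held muscle genes.

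Car KO/hPXR against WT mice, both given CITCO, addressed the loss of mouse Car together with the exchange of PXR. All 10 peroxisomal members had a log2 fold change below 0, from -1.86 (Acot3) to -0.17, with a median of -0.34, where 50.5% of all genes tested lay below 0. The mitochondrial members had a median of -0.13 with 13 of 18 below 0, and the regulated targets a median of -0.31 with 6 of 8 below 0. The regulated targets ran from -0.61 (Cyp4a14) to 0.81 (Acsl5). Libraries did not overlap for 8 members that were lower in Car KO/hPXR mice (Cpt2, Decr1, Eci1, Hsd17b4, Eci2, Acot4, Acsl1 and Angptl4) and 1 that was higher (Acsl5), against 6.77% and 7.45% of all genes. The medians of the 3 roles were -0.06, -0.27 and 0.01 without WT CITCO replicate 3, so the value of the regulated targets rested on that library.

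hCAR/hPXR against Car KO/hPXR mice, both given CITCO and both with human PXR, set human CAR against no CAR. The regulated targets lay lowest, at a median of -0.41 on the log2 scale and 6 of 8 below 0, while the medians were -0.07 for mitochondrial and -0.13 for peroxisomal members and 0.01 for all genes tested. The 7 members whose hCAR/hPXR libraries lay below every Car KO/hPXR library were Hadh, Acat1, Acsl5, Fabp1, Cyp4a10, Cyp4a14 and Plin2, where 7.06% of all genes tested did so, and Hsd17b4 was the 1 member that lay above, against 8.01%. The median of the regulated targets ranged from -0.49 to -0.32 when each of the 6 libraries was left out in turn, that of the peroxisomal members from -0.24 (without hCAR/hPXR CITCO replicate 2) to -0.04 (without hCAR/hPXR CITCO replicate 3), and that of the mitochondrial members from -0.10 to 0.0042 without the same 2 libraries.

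**Figure D2:**
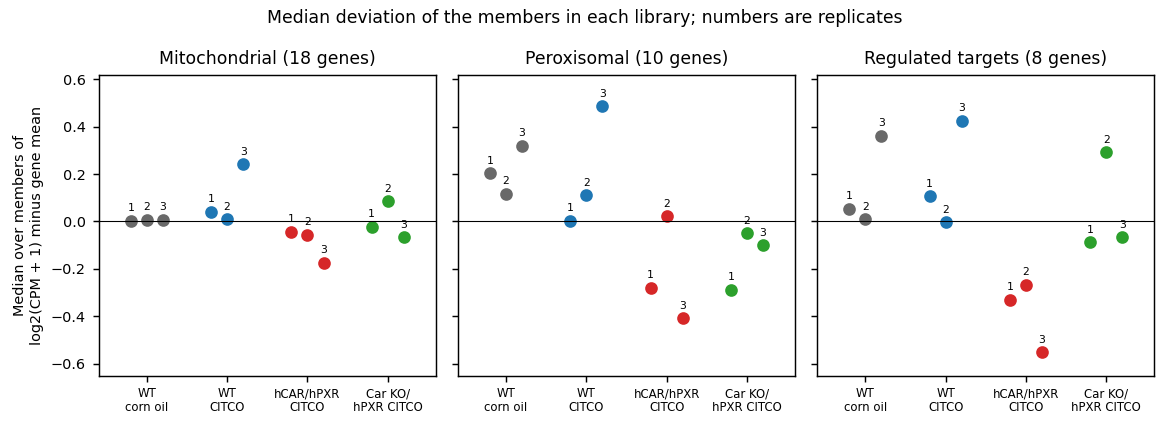
Median over the members of each role (panels) of log2(CPM + 1) minus the gene's mean over 12 libraries (y axis), for every library by group (x axis), with the replicate number above each point. For the regulated targets the 3 hCAR/hPXR CITCO libraries, at -0.33, -0.27 and -0.55, lie below all 9 others, while in each panel WT CITCO replicate 3 is the highest.

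Among the regulated targets, Acsl1 and Acsl5 make acyl-CoA from long-chain fatty acids, the step that commits them to burning or to storage. Acsl1 was counted at 502, 555 and 692 CPM in WT corn oil, 645, 714 and 704 in WT CITCO, 421, 511 and 350.3 in hCAR/hPXR CITCO and 424, 514 and 495 in Car KO/hPXR CITCO libraries. All 3 WT CITCO libraries were above all 6 libraries of the humanised lines, which overlapped each other. The mean was 428 ± 80.7 CPM (SD, n = 3) in hCAR/hPXR CITCO and 688 ± 37.4 CPM (SD, n = 3) in WT CITCO mice. For Acsl1 the log2 fold change between these groups was -0.68 ± 0.17 (SE; adjusted p = 0.118, edgeR) and that in Car KO/hPXR CITCO against WT CITCO was -0.53 ± 0.17 (SE; adjusted p = 0.257, edgeR). DESeq2 gave Acsl1 a log2 fold change of -0.70 and an adjusted p of 0.00515 between hCAR/hPXR and WT mice, and edgeR with no filter on low counts gave 0.0350. Leaving out each of the 6 libraries of these groups gave an adjusted p of 0.0568 to 0.359 (edgeR). Acsl1 (chromosome 8, 46471037 to 46536051, GRCm38) had estimated counts that were not whole in all 12 libraries, that is, reads shared with other loci, and shares 1039 exon bases with Gm45244 on the opposite strand.

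Acsl5 (chromosome 19, 55251938 to 55297720) ran in another order. It was counted at 398, 601 and 562 CPM in WT corn oil, 359, 312 and 417 in WT CITCO, 371, 377 and 466 in hCAR/hPXR CITCO and 657, 599 and 646 in Car KO/hPXR CITCO libraries. The 3 Car KO/hPXR libraries were above all libraries of the other groups given CITCO, and 1 corn oil library lay among them. The log2 fold change of Acsl5 was 0.81 ± 0.17 (SE; adjusted p = 0.0579, edgeR) in Car KO/hPXR CITCO against WT CITCO, -0.65 ± 0.17 (SE; adjusted p = 0.114, edgeR) in hCAR/hPXR against Car KO/hPXR mice, and -0.52 ± 0.17 (SE; adjusted p = 0.327, edgeR) between CITCO and corn oil in WT mice. Acsl5 passed the threshold in Car KO/hPXR CITCO against WT CITCO in 5 alternatives: DESeq2 (adjusted p = 0.000713), no filter on low counts (edgeR, 0.00234), limma on the transformed values (0.0461), a fit of these 2 groups alone (edgeR, 0.0357) and leaving out WT CITCO replicate 3 (edgeR, 0.0388). It did not pass there with DESeq2's size factors in edgeR, with a replicate block, or without any other library. Leaving out each of the 6 libraries gave Acsl5 an adjusted p of 0.0388 to 0.325 (edgeR). Its last exons share 404 bases with Zdhhc6 on the opposite strand.

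**Figure D3:**
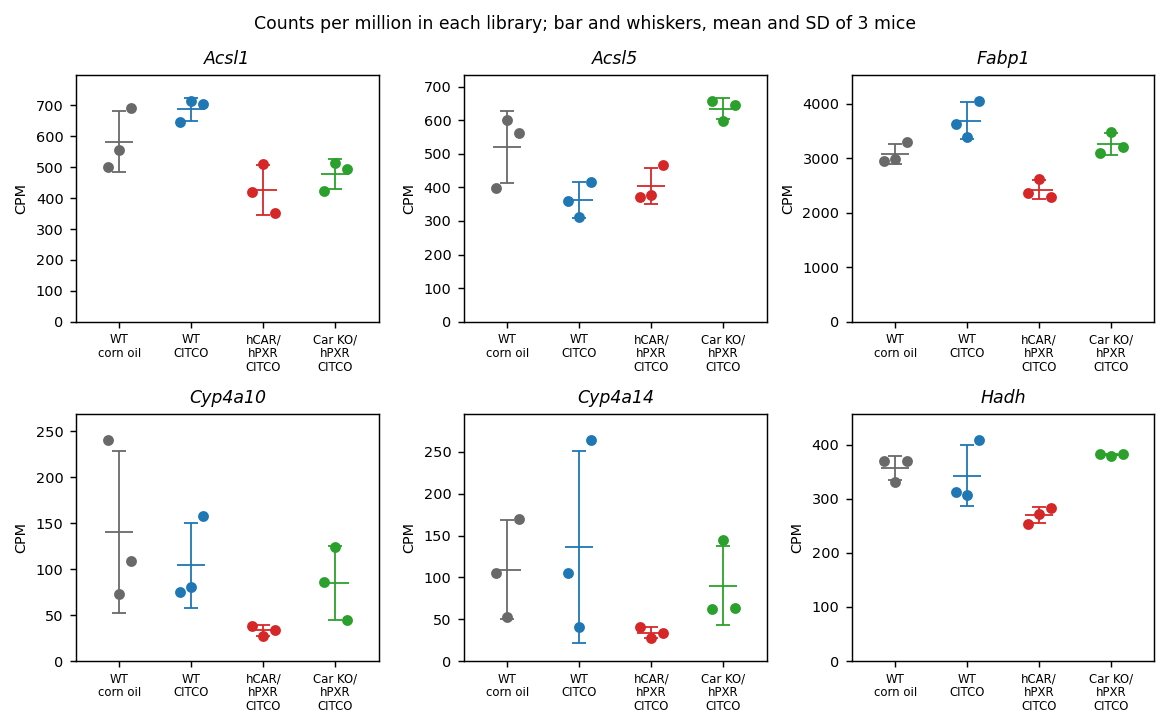
CPM (y axis, from 0) in each library (points, replicates 1 to 3 from left to right) by group (x axis) for 6 members, with the mean (long bar) and SD (whiskers) of 3 mice. The hCAR/hPXR CITCO points of Fabp1 and Hadh lie below those of all other groups, those of Cyp4a10 below those of all other groups with 38.3 CPM at most, and the Car KO/hPXR CITCO points of Acsl5 above those of both other CITCO groups.

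Fabp1, the liver fatty acid binding protein whose promoter held the closest repeat of the members searched, was counted at 2949, 2983 and 3293 CPM in WT corn oil, 3624, 3383 and 4049.6 in WT CITCO, 2363, 2622 and 2289.6 in hCAR/hPXR CITCO and 3094, 3488 and 3214 in Car KO/hPXR CITCO libraries. The hCAR/hPXR libraries were the 3 lowest of the 12 and overlapped with no other group, and the WT CITCO libraries lay above the corn oil libraries. The mean was 2425 ± 175 CPM (SD, n = 3) in hCAR/hPXR CITCO and 3685 ± 338 CPM (SD, n = 3) in WT CITCO mice. For Fabp1 the log2 fold change between these groups was -0.60 ± 0.16 (SE; adjusted p = 0.172, edgeR) and that in hCAR/hPXR against Car KO/hPXR mice was -0.43 ± 0.16 (SE; adjusted p = 0.328, edgeR). DESeq2 gave Fabp1 a log2 fold change of -0.62 and an adjusted p of 1.14e-05 against WT CITCO, and -0.45 with an adjusted p of 0.00457 and a fold change under 1.5 against Car KO/hPXR CITCO.

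Cyp4a10 and Cyp4a14 are the fatty acid omega-hydroxylases that respond most strongly to PPAR alpha ligands in mouse liver, and they lie side by side on chromosome 4 (115518264 to 115533649 and 115486200 to 115496142). Cyp4a10 was counted at 240.1, 72.6 and 109 CPM in WT corn oil, 75.2, 80.2 and 158 in WT CITCO, 38.3, 27.2 and 34.2 in hCAR/hPXR CITCO and 85.8, 124 and 44.4 in Car KO/hPXR CITCO libraries. The hCAR/hPXR libraries were the 3 lowest of the 12, and the other groups overlapped. The mean was 33.2 ± 5.64 CPM (SD, n = 3) in hCAR/hPXR CITCO and 104 ± 46.2 CPM (SD, n = 3) in WT CITCO mice. For Cyp4a10 the log2 fold change between these groups was -1.64 ± 0.42 (SE; adjusted p = 0.132, edgeR) and that against Car KO/hPXR CITCO was -1.35 ± 0.42 (SE; adjusted p = 0.214, edgeR). The adjusted p was 0.0143 in an edgeR fit of hCAR/hPXR and WT CITCO alone, 5.94e-11 with no filter on low counts (edgeR), 0.153 by DESeq2, and 0.163 to 0.400 (edgeR) when each of the 6 libraries was left out.

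Cyp4a14 was counted at 106, 52.2 and 170.3 CPM in WT corn oil, 105, 40.1 and 264 in WT CITCO, 40.9, 27.8 and 33.4 in hCAR/hPXR CITCO and 62.3, 144 and 63.2 in Car KO/hPXR CITCO libraries. The 4 lowest libraries were those of hCAR/hPXR mice and WT CITCO replicate 2, and the WT CITCO libraries had the largest SD of the 4 groups. The mean was 34.0 ± 6.60 CPM (SD, n = 3) in hCAR/hPXR CITCO and 136 ± 115 CPM (SD, n = 3) in WT CITCO mice. For Cyp4a14 the log2 fold change between these groups was -1.99 ± 0.52 (SE; adjusted p = 0.157, edgeR). This value was -2.44 (adjusted p = 0.0230, edgeR) without WT CITCO replicate 2 and -1.10 (adjusted p = 0.550, edgeR) without WT CITCO replicate 3, so 2 libraries of the same group moved it in opposite directions. With no filter on low counts the adjusted p of Cyp4a14 was 6.96e-17 (edgeR), a setting that called 184 genes there against 35 with the filter. DESeq2 gave Cyp4a14 an adjusted p of 0.219 in the same comparison. Against Car KO/hPXR CITCO the log2 fold change of Cyp4a14 was -1.39 ± 0.53 (SE; adjusted p = 0.334, edgeR), and -0.88 without Car KO/hPXR CITCO replicate 2. Counts of Cyp4a10 were not whole in 2 of 12 libraries, which marks reads shared with other loci.

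The other regulated targets tested did not follow this order. Plin2, which coats lipid droplets, ranged from 357 to 746 CPM in WT CITCO, from 386 to 558 in hCAR/hPXR CITCO and from 569 to 737 in Car KO/hPXR CITCO libraries. Angptl4, a secreted inhibitor of lipoprotein lipase, was at 98.7 to 116 CPM in corn oil and 76.7 to 97.8 in WT CITCO libraries, which did not overlap, with an adjusted p of 0.749 (edgeR). Vnn1, a pantetheinase, had 5.08 to 25.9 CPM over the 12 libraries with no group apart. Their adjusted p lay between 0.663 and 0.997 in all 4 comparisons (edgeR).

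Pdk4, the kinase that shuts off pyruvate dehydrogenase, and Fgf21, a hormone the fasting liver secretes, had too few counts to be tested. Pdk4 had counts of 4, 0 and 1 in WT corn oil, 2, 0 and 1 in WT CITCO, 9, 0 and 0 in hCAR/hPXR CITCO and 1, 3 and 3 in Car KO/hPXR CITCO libraries. Fgf21 had at most 1 count in any library. Acot2, a mitochondrial thioesterase, had 9 counts in hCAR/hPXR CITCO replicate 2 and at most 3 in the other libraries.

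Of the mitochondrial members, Hadh, the 3-hydroxyacyl-CoA dehydrogenase of short and medium chains, was counted at 369.5, 331 and 369 CPM in WT corn oil, 313, 307 and 408 in WT CITCO, 254, 272 and 283 in hCAR/hPXR CITCO and 382, 379.9 and 383 in Car KO/hPXR CITCO libraries. The hCAR/hPXR libraries were the 3 lowest of the 12. The log2 fold change of Hadh was -0.50 ± 0.15 (SE; adjusted p = 0.158, edgeR) against Car KO/hPXR CITCO, the lowest adjusted p of a mitochondrial member, and -0.35 ± 0.15 (SE; adjusted p = 0.480, edgeR) against WT CITCO. DESeq2 gave an adjusted p of 0.0120 for the first, with a fold change under 1.5.

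Acat1, the acetoacetyl-CoA thiolase that opens ketone body synthesis, was counted at 344, 491 and 405 CPM in WT corn oil, 354, 404 and 431 in WT CITCO, 261, 326 and 243 in hCAR/hPXR CITCO and 359, 331 and 390.1 in Car KO/hPXR CITCO libraries. Here too the hCAR/hPXR libraries were the 3 lowest of the 12. The mean was 277 ± 44.0 CPM (SD, n = 3) in hCAR/hPXR CITCO and 396 ± 38.8 CPM (SD, n = 3) in WT CITCO mice. For Acat1 the log2 fold change between these groups was -0.52 ± 0.17 (SE; adjusted p = 0.268, edgeR). Bdh1, which interconverts acetoacetate and beta-hydroxybutyrate, had -0.25 ± 0.17 (SE; adjusted p = 0.729, edgeR) in the same comparison, and its groups overlapped.

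Cpt2, the carnitine palmitoyltransferase of the inner membrane, was counted at 82.9, 116 and 101 CPM in WT corn oil, 125, 106 and 165 in WT CITCO, 117, 118 and 79.2 in hCAR/hPXR CITCO and 103, 71.0 and 85.4 in Car KO/hPXR CITCO libraries. The Car KO/hPXR libraries lay below the WT CITCO libraries and within the range of the corn oil libraries but for 1. The log2 fold change of Cpt2 was -0.61 ± 0.21 (SE; adjusted p = 0.310, edgeR) in Car KO/hPXR CITCO against WT CITCO and 0.41 ± 0.21 (SE; adjusted p = 0.582, edgeR) between CITCO and corn oil in WT mice, and the second value went to 0.22 without WT CITCO replicate 3. Cpt1a, the outer-membrane enzyme that controls entry to the shuttle, had 214 to 227 CPM in hCAR/hPXR CITCO and 249.6 to 299 CPM in WT CITCO libraries, with a log2 fold change of -0.30 ± 0.15 (SE; adjusted p = 0.586, edgeR).

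The acyl-CoA dehydrogenases take the first step of each round. Acadl, Acadm, Acads and Acadvl, for long, medium, short and very long chains, had log2 fold changes of 0.23, -0.09, 0.12 and -0.07 in hCAR/hPXR CITCO against WT CITCO, with adjusted p from 0.780 to 0.931 (edgeR). Between CITCO and corn oil in WT mice Acadl had -0.37, the lowest value of a mitochondrial member there. The subunits of the trifunctional protein, Hadha and Hadhb, had -0.14 and -0.33, and the electron transfer genes Etfa, Etfb and Etfdh -0.26, -0.05 and -0.02 (edgeR, adjusted p from 0.717 to 0.989 for these 5). The thiolase Acaa2 had -0.39, and the auxiliary enzymes Decr1 and Eci1, which handle unsaturated chains, had -0.32 and -0.51, with adjusted p of 0.491, 0.586 and 0.493 (edgeR). Crat, the carnitine acetyltransferase, had the highest log2 fold change of the mitochondrial members there, 0.42 ± 0.33 (SE), at 9.68 to 21.7 CPM over the 12 libraries.

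**Figure D4:**
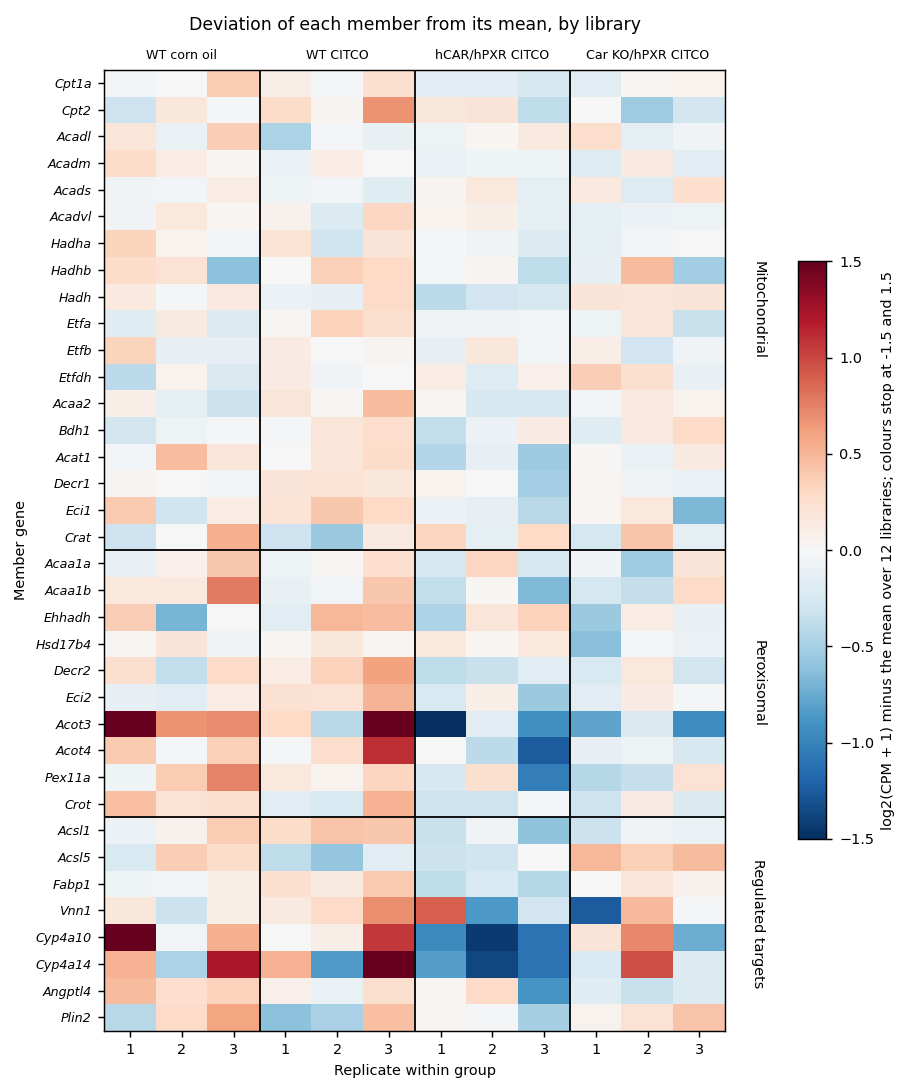
Colours give log2(CPM + 1) minus the gene's mean over 12 libraries for the 36 members tested (y axis, by role) in each library (x axis, replicates within groups). Blue is lower and red higher; hCAR/hPXR CITCO replicate 3 holds 29 members below their mean, WT CITCO replicate 3 holds 4, and Cyp4a10, Cyp4a14 and Acot3 span the widest range.

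Of the peroxisomal members, Acot3, a thioesterase that frees long-chain fatty acids from CoA, was counted at 14.3, 7.05 and 7.25 CPM in WT corn oil, 5.19, 2.77 and 17.6 in WT CITCO, 0.518, 3.47 and 1.67 in hCAR/hPXR CITCO and 1.91, 3.34 and 1.64 in Car KO/hPXR CITCO libraries. All 6 libraries of the humanised lines lay below all 3 corn oil libraries, and the WT CITCO libraries ran from within the humanised range to the highest of the 12. The mean was 1.89 ± 1.49 CPM (SD, n = 3) in hCAR/hPXR CITCO and 8.51 ± 7.95 CPM (SD, n = 3) in WT CITCO mice. For Acot3 the log2 fold change between these groups was -2.13 ± 0.73 (SE; adjusted p = 0.337, edgeR) and that of Car KO/hPXR against WT CITCO was -1.86 ± 0.74 (SE; adjusted p = 0.412, edgeR). Without WT CITCO replicate 3 these values were -1.07 and -0.80. Acot3 had 1 to 6 counts in the hCAR/hPXR libraries, and its exons share 396 bases with Gm49366 on the same strand.

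Acot4, its neighbour on chromosome 12 and a thioesterase whose promoter held a match, was counted at 51.5, 38.1 and 50.1 CPM in WT corn oil, 38.3, 47.0 and 85.1 in WT CITCO, 38.9, 29.5 and 15.8 in hCAR/hPXR CITCO and 35.6, 36.7 and 32.9 in Car KO/hPXR CITCO libraries. The Car KO/hPXR libraries lay below all WT libraries, while hCAR/hPXR and WT CITCO libraries overlapped in 1 library each. The mean was 28.1 ± 11.6 CPM (SD, n = 3) in hCAR/hPXR CITCO and 56.8 ± 24.9 CPM (SD, n = 3) in WT CITCO mice. For Acot4 the log2 fold change between these groups was -0.98 ± 0.30 (SE; adjusted p = 0.257, edgeR). Without WT CITCO replicate 3 it was -0.57 (adjusted p = 0.656, edgeR). With no filter on low counts the adjusted p of Acot4 was 0.0156 (edgeR), and DESeq2 gave 0.219. Its counts were not whole in 5 of 12 libraries.

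Eci2, an enoyl-CoA isomerase of unsaturated chains, was counted at 142, 137 and 167 CPM in WT corn oil, 182, 180.5 and 222 in WT CITCO, 132, 167 and 105 in hCAR/hPXR CITCO and 138, 169 and 153 in Car KO/hPXR CITCO libraries. The 3 WT CITCO libraries were the highest of the 12. The log2 fold change of Eci2 was 0.39 ± 0.17 (SE; adjusted p = 0.511, edgeR) between CITCO and corn oil in WT mice and -0.53 ± 0.17 (SE; adjusted p = 0.297, edgeR) in hCAR/hPXR CITCO against WT CITCO. Decr2, the peroxisomal dienoyl-CoA reductase, had the lowest adjusted p of the peroxisomal members in any comparison of 2 groups, with -0.67 ± 0.20 (SE; adjusted p = 0.220, edgeR) in hCAR/hPXR CITCO against WT CITCO.

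Hsd17b4, the D-bifunctional protein that handles branched chains, was counted at 77.0, 87.4 and 73.7 CPM in WT corn oil, 77.8, 85.7 and 78.1 in WT CITCO, 85.5, 77.5 and 85.1 in hCAR/hPXR CITCO and 48.9, 75.1 and 71.5 in Car KO/hPXR CITCO libraries. The Car KO/hPXR libraries were lower than the hCAR/hPXR and WT CITCO libraries, and Car KO/hPXR replicate 1 was the lowest of the 12. The log2 fold change of hCAR/hPXR against Car KO/hPXR mice was 0.35 ± 0.18 (SE; adjusted p = 0.512, edgeR) and went to 0.17 without Car KO/hPXR replicate 1. Ehhadh, the L-bifunctional protein and a classical PPAR alpha target, had 25.4 to 59.5 CPM over the 12 libraries, and its log2 fold change was -0.25 ± 0.28 (SE; adjusted p = 0.854, edgeR) in hCAR/hPXR CITCO against WT CITCO.

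The thiolases Acaa1a and Acaa1b, the carnitine octanoyltransferase Crot and Pex11a, which takes part in the division of peroxisomes, had log2 fold changes of -0.11, -0.41, -0.29 and -0.43 in hCAR/hPXR CITCO against WT CITCO, with adjusted p from 0.653 to 0.915 (edgeR). Acaa1a and Acaa1b, close copies of each other, had counts that were not whole in all 12 libraries, so the division of reads between them is uncertain.

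Summed over the members of a role, the hCAR/hPXR libraries were the lowest for 2 of the 3 roles. Summed CPM of all 10 regulated targets, tested or not, was 3615 to 4211 in the hCAR/hPXR libraries. This was below 4969 to 5595 in Car KO/hPXR, 5012 to 6459.9 in WT CITCO and 4739 to 5775 in corn oil libraries. Fabp1 was the largest part of this sum, and sums without it were not taken. It had 2289.6 to 2622 CPM in hCAR/hPXR, 3094 to 3488 in Car KO/hPXR, 3383 to 4049.6 in WT CITCO and 2949 to 3293 in corn oil libraries. For all 19 mitochondrial members the sums were 2883 to 3194, 3350.3 to 3394, 3411 to 3967 and 3368 to 3518 CPM in the same order, and the hCAR/hPXR libraries again lay below all others. The peroxisomal sums, 1556 to 2154, 1763 to 2332, 2073 to 2881 and 2328 to 3159 CPM, overlapped between the 2 humanised lines and between each of them and WT CITCO mice. These sums are a description, since the members are not replicates of a group.

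Among 99 other genes of the pathway, listed with earlier results of these data known, 82 were tested. Their shares are therefore a description. In the 4 comparisons of 2 groups 1 was called, in hCAR/hPXR CITCO against WT CITCO, where 0.407% of all genes tested were. This was Aldh3a2, a fatty aldehyde dehydrogenase of omega-oxidation that PPAR alpha ligands induce. The study also listed it as lower in this comparison. It was counted at 104, 83.9 and 141 CPM in WT corn oil, 142, 124 and 169 in WT CITCO, 74.1, 74.1 and 48.4 in hCAR/hPXR CITCO and 85.8, 106 and 83.8 in Car KO/hPXR CITCO libraries, and the hCAR/hPXR libraries lay below all others. Aldh3a2 fell by 1.13 ± 0.21 (SE) on the log2 scale in hCAR/hPXR CITCO against WT CITCO (adjusted p = 0.0185, edgeR). The call was lost (edgeR) without WT CITCO replicate 1 (adjusted p = 0.0768), WT CITCO replicate 3 (0.0808) or hCAR/hPXR CITCO replicate 3 (0.117), and without both libraries that held muscle genes (0.152), at -1.25 to -0.97 on the log2 scale. Of the 82 genes, 57 had a log2 fold change below 0 in this comparison, with a median of -0.15, against a share of 48.4% and a median of 0.01 over all genes tested. By list, the medians were -0.49 for 18 other targets of PPAR alpha, -0.43 for 4 genes of carnitine transport, -0.15 for 12 other mitochondrial enzymes, -0.11 for 17 other peroxisomal enzymes, -0.11 for 11 genes of fatty acid uptake and activation, -0.10 for 4 genes of ketone body handling and -0.10 for 16 regulators.

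Ppara itself had a log2 fold change of 0.10 ± 0.18 (SE; adjusted p = 0.920, edgeR) in hCAR/hPXR CITCO against WT CITCO. In Car KO/hPXR CITCO against WT CITCO, 13 of the 16 regulators had a log2 fold change above 0, with a median of 0.30, and Acacb, the acetyl-CoA carboxylase whose product inhibits the carnitine shuttle, had 1.32 ± 0.29 (SE; adjusted p = 0.0622, edgeR; 0.00743 by DESeq2).

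Other gene groups were summed in the same libraries, and only some of them set the hCAR/hPXR mice apart. Summed CPM of 22 acute phase genes was 19580.5 to 39763 in the hCAR/hPXR libraries, 13889 to 22268 in WT CITCO, 14006 to 16329 in Car KO/hPXR CITCO and 12059 to 13917 in corn oil libraries. Neutrophil markers (6 listed, 5 detected, with Mmp8 at 0) summed to at least 34.7 CPM in hCAR/hPXR libraries and to at most 11.7 CPM elsewhere. This sum was mostly S100a8 and S100a9, with 156 and 105 counts over the 12 libraries. Ly6g, Csf3r and Retnlg had 3, 12 and 7. Kupffer cell markers (10 listed, all detected) summed to 475 to 597 CPM in hCAR/hPXR CITCO, 368 to 551 in WT CITCO, 396 to 428 in Car KO/hPXR CITCO and 302 to 375 CPM in corn oil libraries. Endothelial markers (9 listed, all detected) summed to 264 to 310.3 CPM in hCAR/hPXR CITCO libraries, the 3 lowest of the 12, and to 318 to 366 CPM in the others. A list of 14 genes of fatty acid synthesis in the fed liver summed to 6363 to 11399 CPM in Car KO/hPXR CITCO, 2489 to 4586 in WT CITCO, 3451 to 6778 in hCAR/hPXR CITCO and 3579 to 8288 in corn oil libraries. A list of 16 genes outside the members was chosen as fasting genes, among them Pck1, Tat, Cdkn1a, Per1, Asns and Igfbp1. The study listed Igfbp1 as higher in hCAR/hPXR than in WT mice given CITCO. Of the 16 genes, 15 were found. They summed to 2673 to 4066 CPM in hCAR/hPXR CITCO and 2538 to 2779 CPM in WT CITCO libraries. In Car KO/hPXR CITCO libraries this sum was 2238 to 3711 CPM, and in corn oil libraries 3007 to 4318 CPM. Stellate cell markers overlapped between the hCAR/hPXR libraries and each other group. The part of these groups in the values of the members was not tested.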

How the data were processed

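Expected counts of each gene were deposited by the authors, who trimmed with Trimmomatic, aligned with STAR 2.5.2 and counted with RSEM 1.3 (versions from the submitters' processing notes) on Ensembl genes of GRCm38, for 12 QuantSeq libraries of 3' ends of liver messenger RNA, and log2 values of 17859 genes made by DESeq2's variance-stabilising transformation. Whether counting used the strand is not given in the sources used here. RSEM divides reads that match several genes, which left 9.33% of values in detected genes other than whole numbers (tolerance 0.001). Reads were counted on mouse genes only, so human CAR and PXR were not measured here.

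Rounded counts went into edgeR 4.0.16 (R 4.3.3): TMM, the filterByExpr filter by group, and the two-sided quasi-likelihood test, with all 12 libraries in a model of 4 group means, adjusted over all 8594 genes tested. A gene was called at an adjusted p under 0.05 and a fold over 1.5. Standard errors came from the log2 fold change and the F statistic. Plots of deviations used log2(CPM + 1). The test was checked on simulated counts. Pairs of libraries within a group differed by more than sampling noise, so each counted as 1 mouse. The sources used here do not tie the samples of a group to separate cages or litters, so p-values measure the spread between these samples.

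Alternatives were DESeq2 1.42.0, its size factors in edgeR, no filter, limma 3.58.1 on the deposited values, fits of only the groups compared, a replicate block, and leaving out each library. Leaving out both libraries with muscle genes was added after the data were seen. The members, roles and lists were chosen with earlier results of these data known. Values in every library are given for members called, with an adjusted p under 0.2, or with the largest absolute change in a role and comparison; Acot4 was added after its values were seen. Results of some genes are not reported here. Gene positions were read from GENCODE M21 (GRCm38), a release other than the authors'. Adipocyte markers summed to at most 4.54 CPM, those of lymphocytes to at most 18.3 CPM and of cholangiocytes to at most 27.5 CPM.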

Additional observations from a re-analysis of the deposited data

How the results depend on the processing

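No member was called by edgeR under other size factors, an adjusted p alone, or without both libraries that held muscle genes, an alternative chosen after seeing the data. Counts of members called in hCAR/hPXR CITCO against WT CITCO, Car KO/hPXR CITCO against WT CITCO, hCAR/hPXR against Car KO/hPXR CITCO, and among the 4 groups were 2, 1, 1 and 4 by DESeq2, 4, 1, 3 and 7 with no filter on low counts (where the genes called overall were 184, 227, 233 and 540, and by DESeq2 64, 67, 99 and 206), and 0, 1, 0 and 0 by limma on the transformed values (34, 32, 57 and 114 genes overall). Fits of only the groups compared called 1 member in each of the first 2, among 33 and 40 genes overall. No alternative called a member in WT CITCO against WT corn oil, where the genes called overall went from 20 to 179 with no filter and 44 by DESeq2. Without the filter, the edgeR calls were lower for Acsl1, Cyp4a10, Cyp4a14 and Acot4 in the first comparison, higher for Acsl5 in the second, and lower for Acsl5, Cyp4a10 and Cyp4a14 in the third. The cause of these differences between tools and filters was not tested.

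Leaving out each replicate in turn gave 0 to 1 members in hCAR/hPXR CITCO against WT CITCO (Cyp4a14 without WT CITCO replicate 2), 0 to 1 in Car KO/hPXR CITCO against WT CITCO (Acsl5 without WT CITCO replicate 3), and 0 to 2 among the 4 groups. The median log2 fold change of the regulated targets ranged from -0.48 to 0.17 in WT CITCO against WT corn oil, from -0.64 to -0.31 in hCAR/hPXR CITCO against WT CITCO, and from -0.44 to 0.0097 in Car KO/hPXR CITCO against WT CITCO, and that of the mitochondrial members from -0.024 to 0.12 in WT CITCO against WT corn oil. In the last of these comparisons the regulated targets had -0.30 by DESeq2 and -0.33 with no filter over all 10, Pdk4 and Fgf21 included, but -0.02 and -0.04 over the 8 tested, so these moves came with the added members. In hCAR/hPXR CITCO against WT CITCO they had -0.67 without both libraries with muscle genes, which left 5, 13, 5, 17 and 35 genes called overall (WT CITCO against WT corn oil first) against 20, 35, 22, 50 and 122. Leaving out 1 library gave 6 to 54, 17 to 32, 5 to 58, 10 to 58 and 60 to 160 genes in the same order.

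Deviations of libraries with the same replicate number correlated at -0.05 to 0.07. In Car KO/hPXR CITCO against WT CITCO, replicates 1, 2 and 3 were each closest to their own number. So were replicates 1 and 3 in hCAR/hPXR CITCO against WT CITCO and against Car KO/hPXR CITCO. In WT CITCO against WT corn oil only replicate 2 was. Whether replicate numbers pair the samples was not tested. With a replicate block 1 member was called among the 4 groups (Acsl5, adjusted p = 0.0477, edgeR) and 0 in each other comparison. Depth limited Pdk4, Fgf21 and Acot2, which could not be tested, and Acot3, with few counts.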
